A study of Mus musculus with 12 samples.

Results

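The 42 genes described here act in the G2 phase of the cell cycle and in mitosis, from the cyclins and kinases that start division to the proteins that split the cell. They were taken by gene name from the raw count table. All 42 names were found, and all 42 were among the 15271 of 49671 genes that passed the filter on low counts. RNA came from 12 libraries of ImPSC-1, a mouse pancreatic stellate cell line, in 4 stable derivatives with 3 libraries each: Kitl_OE (Kitl overexpression) and its control Egfp_OE (overexpression of the fluorescent protein gene Egfp), and shKitl (Kitl knockdown by a short hairpin RNA) and its control shCtrl, whose genotype is labelled WT. Kitl encodes KIT ligand, and the study asked what the cells' own KITL does in pancreatic mesenchymal cells. All lines grew in DMEM with 10% serum and 1 mM pyruvate. The shKitl libraries share 1 hairpin name, sh2KitL, and the sources used here do not give the promoter of either transgene or whether a line is a clone or a pool. Nothing in the labels says that replicate libraries were grown as separate cultures, and the p-values therefore measure a spread between libraries that may be technical.

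Entry into mitosis is driven by the kinase Cdk1 bound to cyclins A and B. The mitotic kinases then build the spindle, kinetochores tie chromosomes to its microtubules, and the spindle checkpoint holds back the anaphase-promoting complex until every chromosome is attached. Most of these genes are transcribed late in the cell cycle, and their RNA levels are widely read as a sign of how many cells divide. In bulk RNA, fewer cells in G2 and mitosis and less of these RNAs per cell cannot be told apart.

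The libraries held 24979742 to 33517686 counts in genes, and the least counted value among the 42 genes was 248 reads (Spc24). Levels are given as CPM, a gene's count relative to the TMM-scaled total of its library. Kitl had 125, 114 and 128 CPM in the Kitl_OE libraries, against 72.5, 31.8 and 72.3 CPM in the Egfp_OE libraries. It had 25.1, 25.5 and 30.3 CPM in the shKitl libraries, against 73.5, 73.6 and 76.4 CPM in the shCtrl libraries. Both differences go the way of the labels. In Egfp_OE replicate 2, however, Kitl (31.8 CPM) was far below the other Egfp_OE libraries and close to the shKitl libraries, which widens the overexpression difference. All 10 pancreatic mesenchyme markers passed the filter, although Des, a stellate cell marker, lay at only 0.631 to 8.72 CPM. Of the markers of other cells, 2 of 10 for pancreatic epithelium, 1 of 8 for blood and mast cells and 3 of 6 for endothelium passed it, and Ins1, Ins2, Amy2b, Cd3e and Mcpt4 had 0 counts in all 12 libraries. In Kitl_OE minus Egfp_OE, log2 fold changes of the epithelial markers that passed were -1.78 and 0.79, and that of the blood marker -0.79. Those of the endothelial markers ran from -1.89 to 2.69, and those of the mesenchyme markers from -2.49 to 4.23. Egfp_OE replicate 2 stood apart. Spike-in RNAs took 1.35% of its counts, against 0.446 to 0.684% in the other libraries. In 16 of the 42 genes the log2 fold change of Kitl_OE minus Egfp_OE moved by more than 0.25 without it, and those are given with and without it.

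Many genes of this kind carry a promoter element called CHR, which binds the MuvB complex, a short way downstream of CCAAT boxes, which bind the factor NF-Y. RefSeq promoters of build GRCm38.p6, from 250 bases before to 50 bases after the transcription start, were matched for 34 of the 42 genes by symbol. For each gene only the first listed start was searched, so a missing match holds for that start alone. CHR (TTTGAA or TTCGAA, both strands) was found in 25 of these 34 promoters (73.5%), and in 5254 of 27025 RefSeq promoters (19.4%). A CCAAT box (CCAAT, both strands) stood in 24 of the 34 (70.6%) and in 37.9% of all promoters, and at least 2 of them stood in 18 of the 34 (52.9%) and in 12.2% of all. Both elements occurred together in 22 of the 34 (64.7%) and in 7.70% of all promoters. The letters TTTCCCGC or TTTGGCGC, which bind E2F factors, were in none of the 34 windows and in 1.63% of all promoters. Such a match is a run of letters and was not tested for binding.

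The sequences below run from 130 bases before to 20 bases after the start and show 5 genes that were lower in Kitl_OE than in Egfp_OE cells (Ccnb2, Ttk, Top2a, Kif23 and Bub3) and 3 that did not pass the test (Cdk1, Cdc20 and Kif11). Each is written 5′ to 3′ on its gene's strand, with CHR and CCAAT matches in capitals (TTCAAA and ATTGG are matches on the other strand). Those on the minus strand are Ccnb2 at chr9:70421535-70421684, Top2a at chr11:99024170-99024319, Kif23 at chr9:61946780-61946929, Cdk1 at chr10:69352893-69353042 and Cdc20 at chr4:118437324-118437473. Those on the plus strand are Ttk at chr9:83834559-83834708, Bub3 at chr7:131560240-131560389 and Kif11 at chr19:37376252-37376401.
Ccnb2: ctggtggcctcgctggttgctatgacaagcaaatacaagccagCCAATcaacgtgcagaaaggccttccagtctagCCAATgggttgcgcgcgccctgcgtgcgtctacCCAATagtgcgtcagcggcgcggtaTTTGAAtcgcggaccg
Ttk: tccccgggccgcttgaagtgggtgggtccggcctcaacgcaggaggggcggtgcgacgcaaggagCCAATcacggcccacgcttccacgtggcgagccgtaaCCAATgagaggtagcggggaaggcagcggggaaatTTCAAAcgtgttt
Top2a: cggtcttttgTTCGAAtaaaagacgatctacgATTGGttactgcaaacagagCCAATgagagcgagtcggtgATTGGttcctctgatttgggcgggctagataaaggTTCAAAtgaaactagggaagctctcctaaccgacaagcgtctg
Kif23: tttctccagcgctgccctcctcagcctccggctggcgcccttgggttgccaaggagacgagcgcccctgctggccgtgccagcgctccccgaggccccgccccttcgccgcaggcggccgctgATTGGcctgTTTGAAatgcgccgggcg
Bub3: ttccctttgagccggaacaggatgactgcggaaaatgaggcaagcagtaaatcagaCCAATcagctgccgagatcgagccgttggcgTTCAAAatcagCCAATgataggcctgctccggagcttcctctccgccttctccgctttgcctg
Cdk1: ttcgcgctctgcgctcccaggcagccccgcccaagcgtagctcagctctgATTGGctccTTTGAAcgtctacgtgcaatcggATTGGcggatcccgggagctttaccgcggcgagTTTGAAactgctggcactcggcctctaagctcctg
Cdc20: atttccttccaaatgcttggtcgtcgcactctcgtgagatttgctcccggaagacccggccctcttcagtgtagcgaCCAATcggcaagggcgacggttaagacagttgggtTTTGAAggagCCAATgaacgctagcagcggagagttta
Kif11: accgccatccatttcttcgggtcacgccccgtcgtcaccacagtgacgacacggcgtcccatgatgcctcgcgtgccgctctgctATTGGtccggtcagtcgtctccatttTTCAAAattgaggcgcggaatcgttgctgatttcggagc
In Ccnb2 the 3 CCAAT boxes began 87, 54 and 21 bases upstream of the start, and CHR began at base 5 of the transcript, with another CHR 167 bases upstream, outside the shown window. In Cdk1, whose RNA did not pass the test, a CHR 71 bases upstream lay between CCAAT boxes 80 and 48 bases upstream, and a second CHR lay 15 bases upstream. A further CCAAT box of Cdk1 stood 208 bases upstream, outside the window. In the shown window of Cdc20 the CHR (18 bases upstream) lay between 2 CCAAT boxes. CHR was present in 5 of the 8 matched genes that were lower in Kitl_OE cells (62.5%) and in 20 of the other 26 (76.9%). The lower genes without a CHR match were Birc5, Nuf2 and Plk4. Ccna2, Cdc25c, Foxm1, Aurkb, Incenp, Spc24, Tpx2 and Kif20a were not matched.

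**Figure D1:**
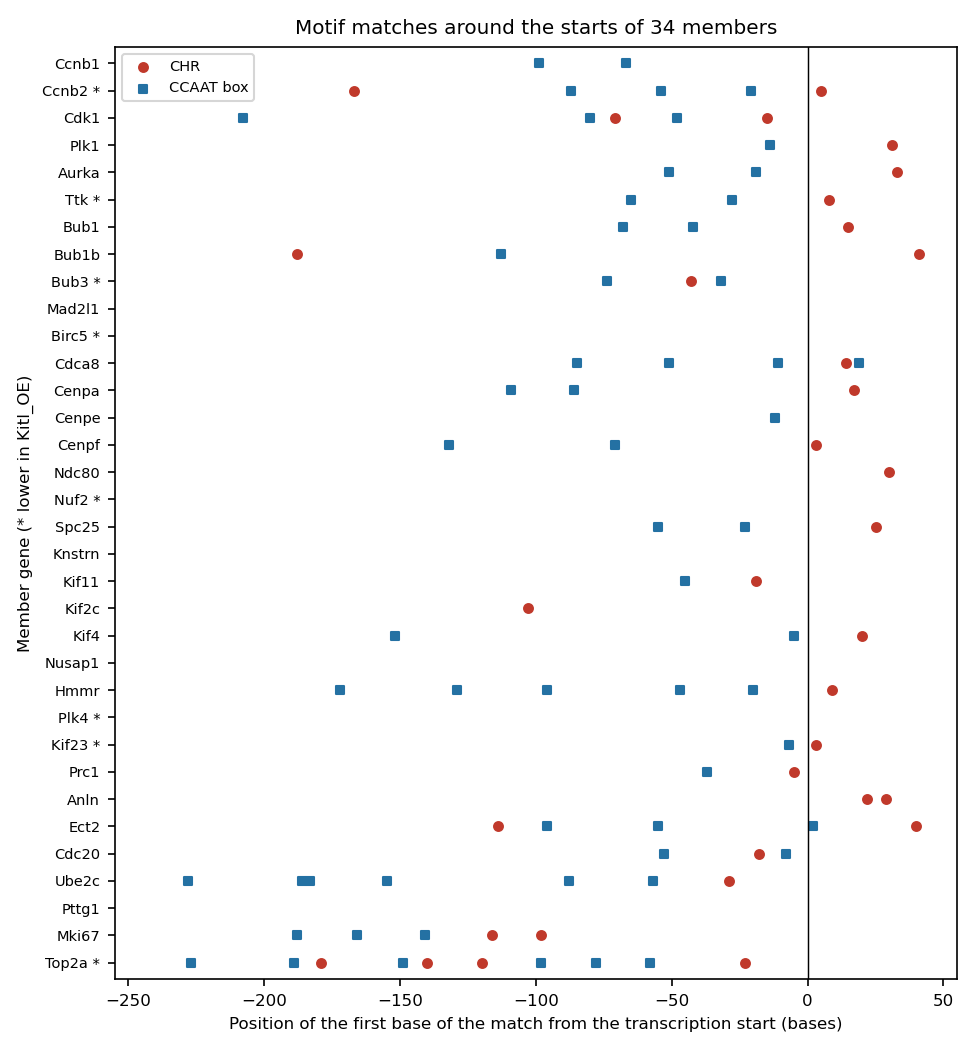
Position of CHR (circles) and CCAAT box (squares) matches in 34 promoters; the x axis is the distance in bases of the first base of each match from the RefSeq transcription start, the y axis lists the genes, and an asterisk marks genes lower in Kitl_OE than in Egfp_OE cells. All but 2 of the CCAAT matches (one each in Ect2 and Cdca8) begin upstream of the start, 22 promoters hold both elements, and 5 of the 8 genes with an asterisk hold a CHR.

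Kitl-overexpressing cells had less RNA of 10 of the 42 genes than Egfp-overexpressing cells, and more of none. The 10 were the cyclins Ccna2 and Ccnb2, the checkpoint genes Ttk and Bub3, the survivin gene Birc5, the kinetochore genes Spc24 and Nuf2, the centriole kinase Plk4, the cytokinesis motor Kif23 and the topoisomerase Top2a. Their log2 fold changes ran from -2.06 (Spc24) to -0.88 (Bub3). Other genes long used as proliferation markers, Mki67, Cdk1, Aurka and Cdc20 among them, did not pass the test. The comparison was run with the edgeR quasi-likelihood test on all 15271 genes, at a Benjamini-Hochberg adjusted p under 0.05. Of all genes tested, 34.3% passed, 18.9% lower and 15.4% higher. Of the 42 genes 23.8% passed, all lower, a share near the 18.9% of all genes that were lower. The log2 fold change was negative in 34 of the 42 genes, against 53.7% of all genes, and its median was -0.26 over the 42 genes and -0.07 over all genes. The groups did not overlap, with Kitl_OE lower, in 11 of the 42 genes and in 25.6% of all genes. The reverse held in 1 of the 42 (Tpx2) and in 24.9% of all genes, so that 50.5% of all genes did not overlap in either direction.

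**Figure D2:**
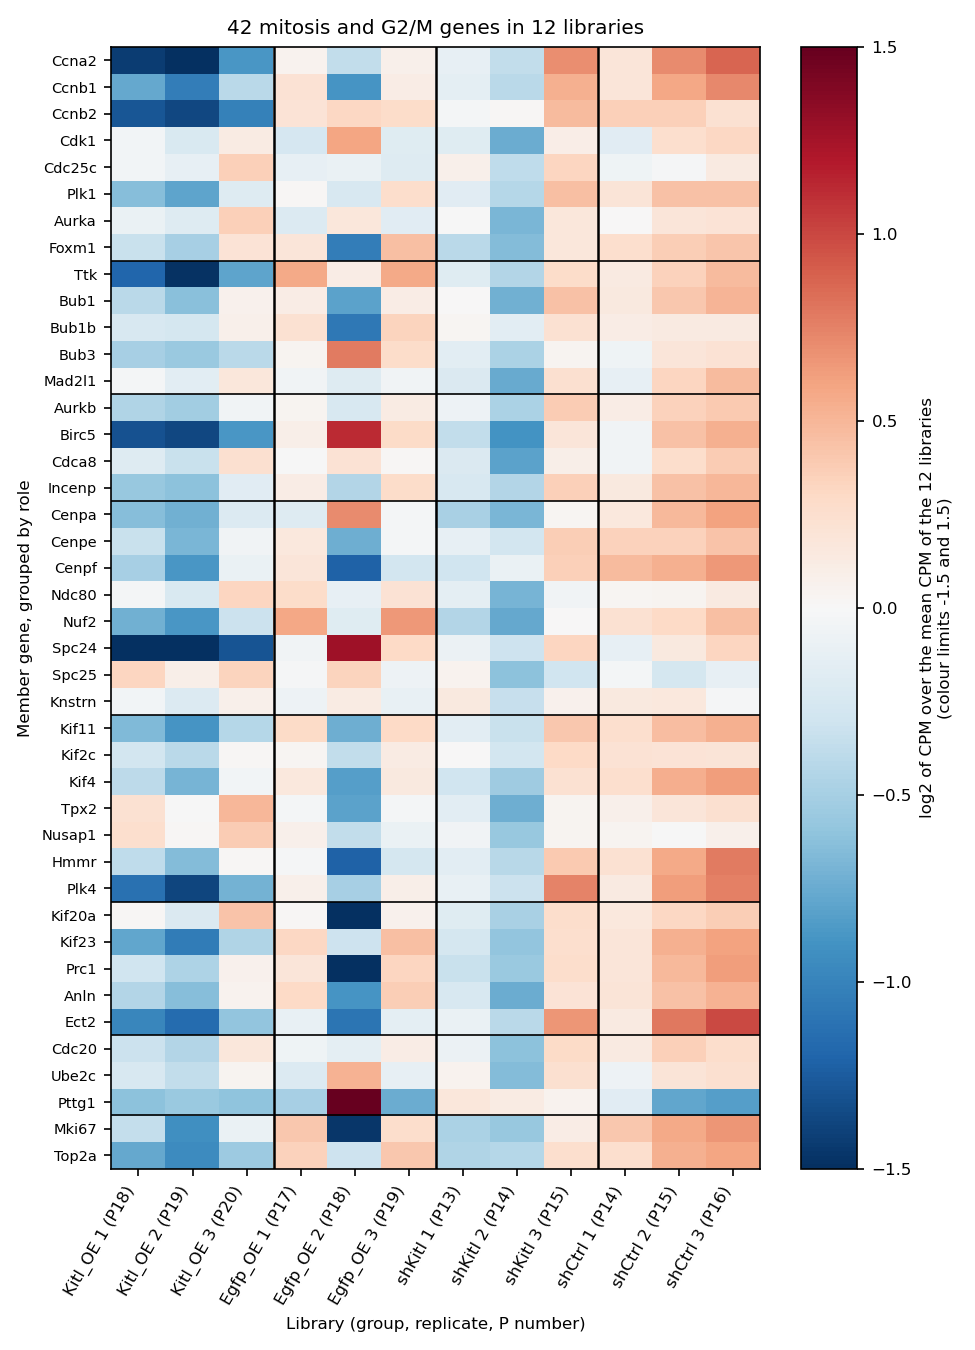
Level of each of the 42 genes in each library as log2 of its CPM over its mean CPM in the 12 libraries (blue below, red above the mean, colours end at -1.5 and 1.5); rows are grouped by role and columns by group, with the P number of the library's description. The 3 Kitl_OE columns are darkest blue in Ccna2, Ccnb2, Ttk, Birc5, Spc24 and Plk4, and Egfp_OE replicate 2 departs from its group in both directions.

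Among the 8 genes of mitotic entry, 2 cyclins were lower in Kitl_OE cells. Ccnb2, which encodes the Golgi-linked cyclin B2, had 22.5, 21.2 and 27.1 CPM in Kitl_OE, against 63.1, 67.7 and 66.3 CPM in Egfp_OE. Every Kitl_OE library was far below every Egfp_OE library, and the replicates within each group lay close together. This gave a log2 fold change of -1.48 ± 0.167 (SE, adjusted p = 8.29e-05). Ccna2, cyclin A2 of S phase and early mitosis, had 71.9, 61.1 and 106 CPM in Kitl_OE, against 200, 150 and 204 CPM in Egfp_OE. The groups were apart, with a log2 fold change of -1.21 ± 0.305 (adjusted p = 0.0103). The call for Ccna2 ended without Kitl_OE replicate 1 (-1.13, adjusted p = 0.0539) or replicate 2 (-1.04, adjusted p = 0.0525).

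The other cyclin and the kinases of entry did not pass. Ccnb1, cyclin B1, the main partner of Cdk1, had 78.8, 65.1 and 101 CPM in Kitl_OE, against 155, 72.4 and 145 CPM in Egfp_OE. Egfp_OE replicate 2 fell inside the Kitl_OE range, and the log2 fold change was -0.61 ± 0.315 (adjusted p = 0.159). Without that library it was -0.87 with an adjusted p of 0.0322, the only 1 of 25 alternatives in which Ccnb1 passed. Cdk1 itself had 199, 175 and 222 CPM in Kitl_OE, against 171, 307 and 180 CPM in Egfp_OE. Its groups overlapped, with the highest value in Egfp_OE replicate 2, and the log2 fold change was -0.15 (95% interval -0.73 to 0.43, adjusted p = 0.702). Without that library it was 0.19.

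Plk1, a kinase acting from mitotic entry to cytokinesis, had 65.3, 58.5 and 88.5 CPM in Kitl_OE, against 103, 86.0 and 122 CPM in Egfp_OE. The highest Kitl_OE library just passed the lowest Egfp_OE library, and the log2 fold change was -0.55 (adjusted p = 0.0942, but 0.0313 with the replicate number as a block and 0.0244 with the P number, a number in each library's description, as a covariate). Aurka, the kinase of centrosomes and spindle poles, had 81.4, 76.6 and 112 CPM in Kitl_OE, against 75.9, 97.8 and 77.5 CPM in Egfp_OE. These values were mixed, and the log2 fold change was 0.10 (95% interval -0.39 to 0.59). Foxm1, a transcription factor of G2 and mitotic genes, had 125, 112 and 182 CPM in Kitl_OE, against 178, 76.8 and 216 CPM in Egfp_OE. The Egfp_OE libraries spanned the whole Kitl_OE range, with replicate 2 lowest, and the log2 fold change was -0.17 (95% interval -0.91 to 0.57), or -0.49 without that library (adjusted p = 0.159). Cdc25c, the phosphatase that activates Cdk1, lay at 21.4 to 29.9 CPM in Kitl_OE, against 20.5 to 21.8 CPM in Egfp_OE, with a log2 fold change of 0.22 (adjusted p = 0.414).

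In the spindle checkpoint, 2 of 5 genes were lower. Ttk, the Mps1 kinase that starts checkpoint signalling at kinetochores, had 13.3, 10.9 and 17.5 CPM in Kitl_OE, against 44.9, 32.8 and 45.0 CPM in Egfp_OE. The groups were well apart, with a log2 fold change of -1.56 ± 0.235 (adjusted p = 0.000567). Bub3, which brings Bub1 and BubR1 to kinetochores, had 95.6, 92.0 and 102 CPM in Kitl_OE, against 139, 232 and 164 CPM in Egfp_OE. Here too no library overlapped, although the Egfp_OE libraries were spread widely, and the log2 fold change was -0.88 ± 0.200 (adjusted p = 0.00600). The binding partners of Bub3 gave smaller values that did not pass, -0.16 for the kinase gene Bub1 (adjusted p = 0.731) and -0.09 for Bub1b, which encodes BubR1 (adjusted p = 0.833). Without Egfp_OE replicate 2, Bub1b was at -0.40 with an adjusted p of 0.0508. Mad2l1, which encodes a checkpoint inhibitor of Cdc20, lay at 109 to 136 CPM in Kitl_OE, against 106 to 117 CPM in Egfp_OE.

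The chromosomal passenger complex corrects wrong attachments and later marks the cleavage plane. Of its 4 subunit genes, Birc5 alone was lower. Birc5, which encodes survivin, had 41.6, 40.0 and 56.2 CPM in Kitl_OE, against 109, 223 and 126 CPM in Egfp_OE. The groups were far apart, with a log2 fold change of -1.73 ± 0.325 (adjusted p = 0.00205). The kinase gene Aurkb had 54.2, 51.7 and 71.5 CPM in Kitl_OE, against 76.6, 62.9 and 80.8 CPM in Egfp_OE. The scaffold gene Incenp had 85.0, 82.2 and 112 CPM in Kitl_OE, against 136, 92.5 and 152 CPM in Egfp_OE. In both genes Egfp_OE replicate 2 reached into the Kitl_OE range. The log2 fold changes were -0.31 for Aurkb (adjusted p = 0.290) and -0.45 for Incenp (adjusted p = 0.177). Cdca8, which encodes borealin, was at -0.15 (adjusted p = 0.646). Whether the change of Birc5 differs from that of its partners was not tested.

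Spc24, Spc25, Nuf2 and Ndc80 encode the 4 subunits of the NDC80 complex, the main microtubule coupler of the kinetochore, and their values were unequal. Spc24 had 9.65, 9.97 and 11.5 CPM in Kitl_OE, against 27.1, 68.2 and 34.6 CPM in Egfp_OE. The 3 Kitl_OE libraries agreed closely and lay below every other library of the study. With a log2 fold change of -2.06 ± 0.313 (adjusted p = 0.000579), the fitted Kitl_OE level was 23.9% of that in Egfp_OE. Nuf2 had 39.9, 36.1 and 52.9 CPM in Kitl_OE, against 98.8, 58.1 and 103 CPM in Egfp_OE. Its groups were apart, though Egfp_OE replicate 2 was close to the highest Kitl_OE library, and the log2 fold change was -1.01 ± 0.255 (adjusted p = 0.0104). The Nuf2 call ended without Kitl_OE replicate 1 (adjusted p = 0.0547) or replicate 2 (adjusted p = 0.0544). Ndc80 and Spc25 had log2 fold changes of -0.10 (95% interval -0.54 to 0.34) and 0.16 (-0.25 to 0.57).

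Of the other kinetochore genes none passed. Cenpa, the histone H3 variant that marks centromeres, had 48.8, 46.2 and 66.1 CPM in Kitl_OE, against 66.6, 125 and 74.9 CPM in Egfp_OE. Its groups did not overlap, by a narrow gap, and the log2 fold change of -0.73 had an adjusted p of 0.0555. Cenpa passed in 6 of 25 alternatives, among them those without Egfp_OE replicate 1 (-0.89, adjusted p = 0.0332) or shKitl replicate 3 (-0.71, adjusted p = 0.0448), and was at -0.38 without Egfp_OE replicate 2 (adjusted p = 0.223). Knstrn, which encodes a small kinetochore and spindle protein, had 50.1, 44.8 and 54.4 CPM in Kitl_OE, against 48.9, 56.3 and 47.9 CPM in Egfp_OE. These values were mixed, with a log2 fold change of -0.04 (95% interval -0.39 to 0.31). The motor gene Cenpe (-0.18) and Cenpf (-0.13), a kinetochore protein of late G2, did not pass either (adjusted p = 0.613 and 0.783). Cenpf was at -0.41 without Egfp_OE replicate 2 (adjusted p = 0.208).

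Among the 7 genes of spindle motors, spindle assembly and centrioles, Plk4 was lower. Plk4, the kinase that sets centriole number, had 37.2, 31.0 and 49.3 CPM in Kitl_OE, against 85.3, 57.1 and 86.0 CPM in Egfp_OE. The groups were apart, with a log2 fold change of -0.96 ± 0.299 (adjusted p = 0.0283). This was the least stable of the 10 calls: it ended without Kitl_OE replicate 1 (adjusted p = 0.104) or 2 (0.116), without Egfp_OE replicate 1 (0.0730) or 3 (0.0759), or without shCtrl replicate 2 (0.0501). Tpx2, which activates Aurora A on spindle microtubules, had 232, 198 and 280 CPM in Kitl_OE, against 194, 113 and 194 CPM in Egfp_OE. Every Kitl_OE library was above every Egfp_OE library, but the log2 fold change of 0.50 did not pass (adjusted p = 0.133). Kif11, the motor that pushes spindle poles apart, had a log2 fold change of -0.67 (adjusted p = 0.0795). It passed without Egfp_OE replicate 2 (-0.92, adjusted p = 0.00743) and with the replicate block (adjusted p = 0.0466). Nusap1 (0.35), Hmmr (0.10), Kif2c (-0.15) and Kif4 (-0.25) had adjusted p values of 0.170 to 0.820, and Hmmr was at -0.16 without Egfp_OE replicate 2.

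In the group of midzone and cytokinesis genes, Kif23 was lower. Kif23, a subunit of centralspindlin, had 39.5, 32.7 and 49.3 CPM in Kitl_OE, against 83.8, 54.5 and 92.1 CPM in Egfp_OE. The groups did not overlap, and the log2 fold change was -0.92 ± 0.261 (adjusted p = 0.0178). That call ended without Kitl_OE replicate 1 (adjusted p = 0.0743), Kitl_OE replicate 2 (0.0847) or Egfp_OE replicate 3 (0.0616). Kif20a, a motor of the midzone, was at 0.46 (adjusted p = 0.394), Prc1, which bundles midzone microtubules, at -0.04 (0.951), the contractile ring gene Anln at -0.34 (0.453) and the RhoA activator gene Ect2 at -0.50 (0.270). Egfp_OE replicate 2 was far below its group in Kif20a (44.4 CPM, against 164 and 169 CPM in replicates 1 and 3) and Prc1 (33.2 CPM, against 134 and 147 CPM). Without that library Kif20a was at 0.07 (adjusted p = 0.833), Prc1 at -0.45 (0.171) and Anln at -0.63 (0.0897). The exons of Kif20a and Prc1 also overlap those of Cdc23 and Rccd1 on the other strand by 1271 and 911 bases. Among the genes lower in Kitl_OE, Ccna2 overlaps Exosc9 on the other strand by 510 bases. Further genes with such overlaps include Kif4 (832 bases), Cdc25c (623 bases) and Ube2c (592 bases). The strand setting of the counting is not given, so reads there cannot be told apart. Top2a shares 122 bases with a small nucleolar RNA gene on its own strand.

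Of the genes of the anaphase-promoting complex and its substrate securin none passed. Cdc20, the activator of the complex, had 88.5, 81.6 and 124 CPM in Kitl_OE, against 105, 99.8 and 119 CPM in Egfp_OE. The Kitl_OE libraries spanned the Egfp_OE range, and the log2 fold change was -0.14 (95% interval -0.63 to 0.36). Ube2c, the ubiquitin-conjugating enzyme of the complex, was at -0.28 (adjusted p = 0.410), and at -0.0022 without Egfp_OE replicate 2. Pttg1, which encodes securin, had 23.8, 24.8 and 24.0 CPM in Kitl_OE, against 25.7, 124 and 21.8 CPM in Egfp_OE. A single library, Egfp_OE replicate 2, stood about 5 times above its partners, and the other 5 values were nearly equal. The log2 fold change of -1.24 (adjusted p = 0.0874) was 0.04 without that library. Pttg1 passed with DESeq2 (adjusted p = 0.0413) and, with replicate 2 kept, without Egfp_OE replicate 1 (0.0350) or replicate 3 (0.0245).

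Of the chromosome genes, Top2a was lower. Top2a, the enzyme that untangles sister chromatids, had 292, 259 and 342 CPM in Kitl_OE, against 634, 401 and 657 CPM in Egfp_OE. The groups did not overlap, with a log2 fold change of -0.92 ± 0.245 (adjusted p = 0.0135). The call ended without Kitl_OE replicate 1 (adjusted p = 0.0615) or replicate 2 (0.0662). Mki67, which encodes the Ki-67 protein of the mitotic chromosome surface, had 265, 180 and 317 CPM in Kitl_OE, against 452, 124 and 408 CPM in Egfp_OE. Egfp_OE replicate 2 held the lowest value of the 6, and replicates 1 and 3 the highest. Its log2 fold change was -0.37 ± 0.393 (adjusted p = 0.498), and without that library it was -0.75 with an adjusted p of 0.0389.

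**Figure D3:**
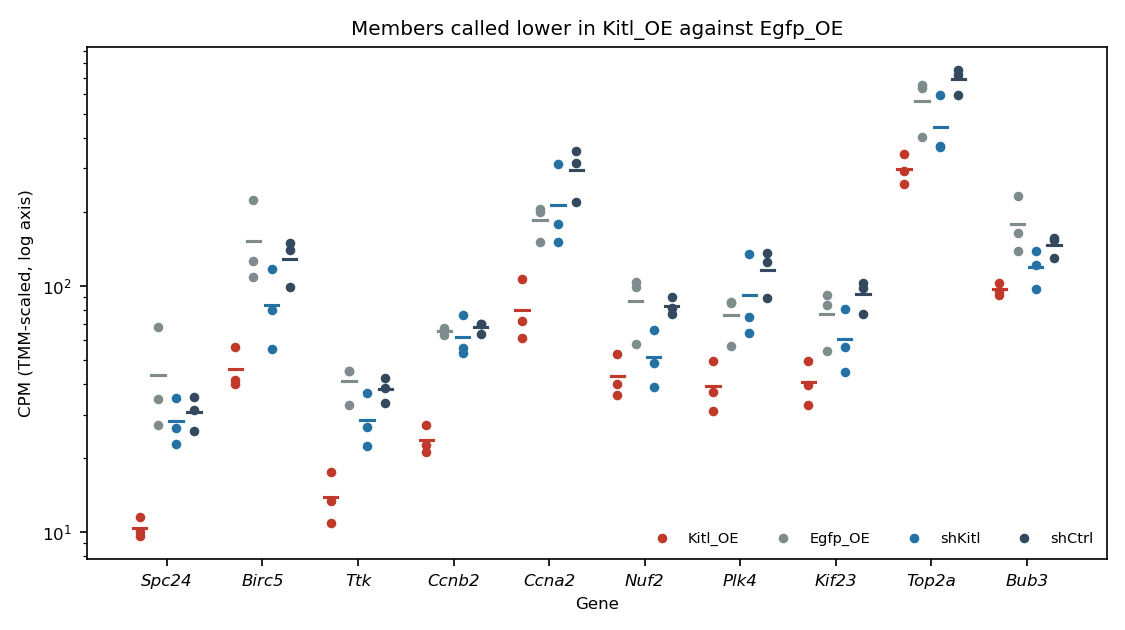
CPM on a log axis of the 10 genes lower in Kitl_OE than in Egfp_OE cells; points are the 3 libraries of each group (Kitl_OE, Egfp_OE, shKitl and shCtrl from left to right) and bars their means. In every gene the 3 Kitl_OE points lie below the 3 Egfp_OE points, and in Spc24, Ttk, Ccnb2, Ccna2, Plk4 and Top2a they are also below all 6 shKitl and shCtrl points.

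Ccnb2, Ttk, Birc5 and Spc24 passed in all 25 alternatives, among them each library left out in turn, and Bub3 passed in 23. Ccna2 passed in 20, Nuf2 and Top2a in 19, Kif23 in 18 and Plk4 in 16. Without Kitl_OE replicate 1 or replicate 2, 5 of the 42 genes passed (over all genes, 3501 of 15703 and 3562 of 15640). Without Egfp_OE replicate 2, 13 of the 42 passed (over all genes, 6150 of 15622). The median log2 fold change of the 42 genes, -0.26 with all libraries, was -0.41 without Egfp_OE replicate 2 and -0.13 without Kitl_OE replicate 2, where 30 of the 42 values were negative. With spike-in scaling 4 of the 42 and 2351 of all 15271 genes passed, against 10 and 5236 with TMM scaling.

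Under Kitl knockdown none of the 42 genes passed the test, although most of their fold changes were on the same side. The log2 fold change, shKitl minus shCtrl, was negative in 40 of the 42 genes, against 45.6% of all genes, with a median of -0.40 over the 42 genes and 0.05 over all genes. That median was -0.22, with 35 negative values, without shKitl replicate 2, and -0.67 without shKitl replicate 3. By edgeR 0 of the 42 genes passed, as did 0 of all 15271 genes (0%), Kitl included (-1.46, adjusted p = 0.121). At an unadjusted p under 0.05 stood 5 of the 42 genes (Cenpa, Nuf2, Top2a, Kif23 and Kif4) and 2417 of all genes (15.8%). DESeq2 called 439 genes in this comparison, limma-voom 0 and limma on log2(TPM + 1) 7, and none of the 42 was among them. The smallest adjusted p among the 42 was 0.242 (Cenpa). The shKitl libraries lay wholly below the shCtrl libraries in 9 of the 42 genes, against 8.64% of all genes, and wholly above them in 1 of the 42 (Pttg1), against 11% of all genes. With 3 libraries against 3, an exact permutation test cannot go below p = 0.1.

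The lowest fold changes were those of Mki67, Cenpa and Nuf2. Mki67 had 246, 230 and 367 CPM in shKitl, against 452, 505 and 539 CPM in shCtrl. All 3 shKitl libraries were below the lowest shCtrl library, and the log2 fold change was -0.83 ± 0.395 (adjusted p = 0.332). Cenpa had 54.3, 47.3 and 77.9 CPM in shKitl, against 84.9, 106 and 116 CPM in shCtrl, a log2 fold change of -0.77 ± 0.269. Nuf2 had 48.5, 38.7 and 66.4 CPM in shKitl, against 77.0, 81.1 and 90.2 CPM in shCtrl, a log2 fold change of -0.69 ± 0.254 (adjusted p = 0.251). In both genes the groups were apart, with shKitl replicate 3 nearest to the controls.

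The kinase and cyclin genes showed the same arrangement of libraries. Cdk1 had 180, 122 and 219 CPM in shKitl, against 182, 243 and 254 CPM in shCtrl. Ccnb1 had 121, 101 and 194 CPM in shKitl, against 151, 200 and 220 CPM in shCtrl. In both, shKitl replicate 3 lay within the shCtrl range and replicate 2 was lowest. Ccna2 had 178, 150 and 313 CPM in shKitl, against 220, 316 and 354 CPM in shCtrl. Plk1 had 90.2, 75.7 and 139 CPM in shKitl, against 117, 137 and 137 CPM in shCtrl. For both genes shKitl replicate 3 again reached the controls. The log2 fold changes of these 4 genes lay between -0.47 and -0.36, with adjusted p values of 0.446 to 0.489.

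The remaining named genes differed in how far the groups overlapped. Top2a had 365, 371 and 593 CPM in shKitl, against 595, 721 and 751 CPM in shCtrl. Foxm1 had 119, 100 and 177 CPM in shKitl, against 188, 203 and 210 CPM in shCtrl. In these 2 genes no library overlapped, by a narrow margin in Top2a, with log2 fold changes of -0.64 (adjusted p = 0.261) and -0.60 (0.395). Aurka had 86.8, 54.4 and 97.9 CPM in shKitl, against 87.8, 99.1 and 101 CPM in shCtrl. Aurkb had 70.7, 53.6 and 96.7 CPM in shKitl, against 80.5, 94.8 and 97.4 CPM in shCtrl. Both overlapped through shKitl replicate 3. Cdc20 had 104, 71.8 and 135 CPM in shKitl, against 121, 141 and 132 CPM in shCtrl. Incenp had 107, 92.4 and 162 CPM in shKitl, against 139, 171 and 177 CPM in shCtrl. Again shKitl replicate 3 lay among the controls and replicate 2 was lowest.

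The genes that were lower under overexpression had knockdown values of various sizes. Birc5 had 79.9, 55.4 and 117 CPM in shKitl, against 98.8, 139 and 149 CPM in shCtrl (log2 fold change -0.62, adjusted p = 0.357). Bub3 had 121, 96.8 and 139 CPM in shKitl, against 130, 153 and 156 CPM in shCtrl (-0.30, adjusted p = 0.464). Both overlapped. Ccnb2 had 53.5, 55.6 and 76.0 CPM in shKitl, against 70.0, 70.2 and 63.9 CPM in shCtrl, with the highest of the 6 values in shKitl replicate 3. Spc24 had 26.5, 22.8 and 35.1 CPM in shKitl, against 25.8, 31.2 and 35.2 CPM in shCtrl, and Ttk had 26.8, 22.4 and 36.7 CPM in shKitl, against 33.4, 38.5 and 42.3 CPM in shCtrl. Spc24 was nearly level between the groups (-0.13, 95% interval -0.78 to 0.53), and Ttk was at -0.41 (-0.91 to 0.09).

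At the other end of the ranking stood Pttg1, Cdc25c and Bub1b. Pttg1 had 41.0, 39.7 and 37.7 CPM in shKitl, against 32.3, 21.2 and 20.4 CPM in shCtrl. It was the only one of the 42 genes with every shKitl library above every shCtrl library, with a log2 fold change of 0.68 ± 0.520 (adjusted p = 0.529). Cdc25c had 24.7, 18.1 and 29.2 CPM in shKitl, against 22.3, 23.1 and 25.8 CPM in shCtrl. Bub1b had 95.1, 83.2 and 109 CPM in shKitl, against 100, 102 and 102 CPM in shCtrl. In these 2 genes the shKitl libraries fell on both sides of the shCtrl libraries, and the log2 fold changes were 0.02 and -0.08. Knstrn had 57.2, 40.5 and 54.1 CPM in shKitl, against 57.2, 57.8 and 51.1 CPM in shCtrl, an overlap with a log2 fold change of -0.13.

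The shKitl libraries differed widely among themselves. The number of the 42 genes at an unadjusted p under 0.05 was 5 with all libraries (over all genes, 2417 of 15271). It was 23 without shKitl replicate 3 (3800 of 15703) and 14 without Egfp_OE replicate 2 (3886 of 15622). With no library left out it was 18 with the replicate block (2759 of 15271). With the 2 groups alone it was 12 (2299 of 14386). It was 0 without shKitl replicate 2 (1190 of 15637) and 0 with the P number as a covariate (1220 of 15271). Without shKitl replicate 1 or shCtrl replicate 3 it was 1 (1623 of 15608 and 1089 of 15691). None of the 42 passed after adjustment in any of these, and without shKitl replicate 3, 277 of all genes passed. Without Egfp_OE replicate 2 or shCtrl replicate 1, 81 and 82 of all genes and 0 of the 42 passed.

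**Figure D4:**
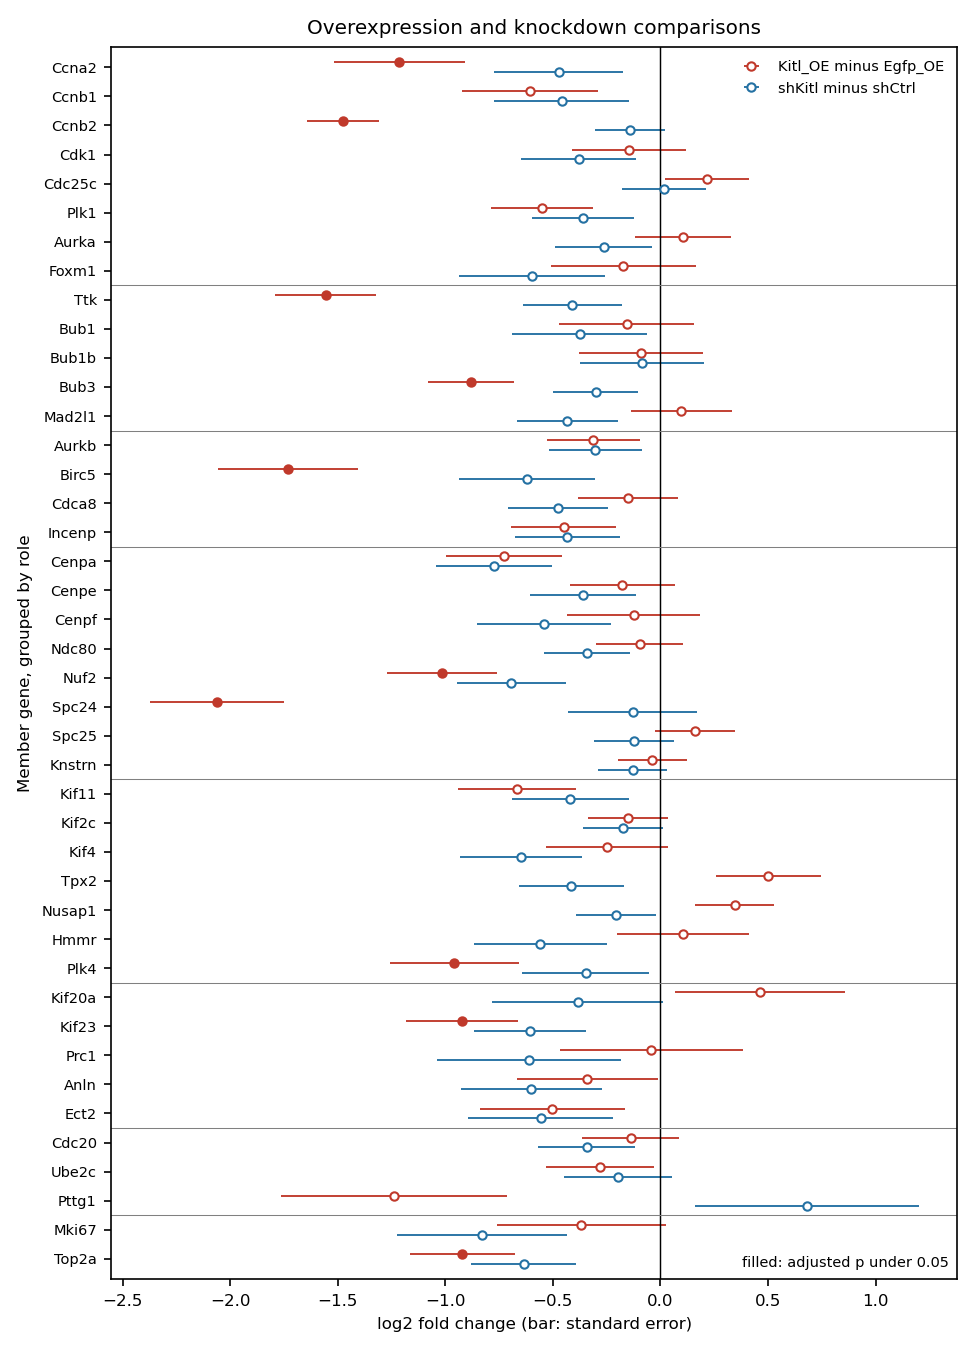
log2 fold change of each of the 42 genes in Kitl_OE minus Egfp_OE (red) and in shKitl minus shCtrl (blue), with bars of 1 standard error and filled points at an adjusted p under 0.05; genes are grouped by role. The 10 filled points are red and lie between -2.06 and -0.88, and 40 of the 42 blue points lie left of 0 without passing the test.

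The difference of the overexpression and knockdown effects was tested in the same fit. It passed for 3 of the 42 genes, Spc24 (-1.93 ± 0.429, adjusted p = 0.0124), Ccnb2 (-1.34 ± 0.232, adjusted p = 0.00341) and Ttk (-1.15 ± 0.326, adjusted p = 0.0378). In each of them the log2 fold change was more negative under overexpression. Of all genes 14% passed, 9.88% with a lower and 4.07% with a higher overexpression effect. The call for Ccnb2 held in 22 of 23 alternatives, that for Spc24 in 21 and that for Ttk in 10. For Ttk it ended when any library but Kitl_OE replicate 3, Egfp_OE replicate 2 and shKitl replicate 2 was left out, with adjusted p values of 0.0609 to 0.114. For Birc5 the difference was -1.11 (adjusted p = 0.124), for Top2a -0.28 (95% interval -1.03 to 0.47) and for Nuf2 -0.32 (-1.10 to 0.46). Without Egfp_OE replicate 2 the difference for Spc24 was -1.41 (adjusted p = 0.00776). The median difference over the 42 genes was 0.07, beside -0.09 over all genes, and ran from -0.07 without shKitl replicate 2 to 0.30 without shKitl replicate 3. In Pttg1 the difference passed with DESeq2 (adjusted p = 0.0490) and without Egfp_OE replicate 3 (0.0378), and in Tpx2 with the replicate block (0.0356).

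The 2 control lines were compared as well, since both derive from ImPSC-1 and neither is labelled with a change of Kitl. By edgeR 0 of the 42 genes passed in Egfp_OE minus shCtrl, against 1.25% of all genes (0.511% higher, 0.74% lower). An unadjusted p under 0.05 was found in 5 of the 42, against 24.4% of all genes. DESeq2 called 2 of the 42 (Ect2 and Hmmr) and 1553 of all 15271 genes. The count of all genes called by edgeR, 191, ran from 0 to 771 as single libraries were left out. The log2 fold change was negative in 34 of the 42 genes and in 46.3% of all genes. The Egfp_OE libraries lay wholly below the shCtrl libraries in 14 of the 42 genes, against 13.9% of all genes, and wholly above in 0 of the 42, against 14.6%. This comparison shares the Egfp_OE libraries with the overexpression comparison and the shCtrl libraries with the knockdown comparison.

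The 3 lowest values were those of Ect2, Hmmr and Cenpf. Ect2 had 141, 71.4 and 138 CPM in Egfp_OE, against 167, 264 and 302 CPM in shCtrl (log2 fold change -1.06 ± 0.339, adjusted p = 0.107). Hmmr, a spindle assembly gene, had 87.0, 38.1 and 73.8 CPM in Egfp_OE, against 104, 131 and 151 CPM in shCtrl (-0.95 ± 0.311, adjusted p = 0.112). Cenpf had 82.0, 31.2 and 59.8 CPM in Egfp_OE, against 101, 105 and 114 CPM in shCtrl (-0.88 ± 0.313, adjusted p = 0.131). In all 3 the groups were apart and Egfp_OE replicate 2 was lowest. The 3 highest were Pttg1 (1.21), Spc24 (0.49) and Bub3 (0.28), in each of which Egfp_OE replicate 2 was the highest of the control libraries. Pttg1 was at -0.05, Spc24 at 0.01 and Bub3 at 0.05 without it.

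Within 3 of the 4 groups most of the 42 genes had the same library highest and the same library lowest. In Kitl_OE, replicate 3 was the highest library in 41 of the 42 genes (38.6% of all genes) and replicate 2 the lowest in 40 (32.0% of all genes). In shKitl, replicate 3 was highest in 39 of the 42 (32.3% of all genes) and replicate 2 lowest in 38 (31.2%). In shCtrl, replicate 3 was highest in 34 of the 42 (36.4% of all genes) and replicate 1 lowest in 35 (39.4%). In Egfp_OE, replicates 1, 2 and 3 were highest in 12, 13 and 17 of the 42 genes, and replicate 2 was lowest in 29 (44.6% of all genes). The replicates carry a P number in their descriptions (18, 19 and 20 in Kitl_OE, 17, 18 and 19 in Egfp_OE, 13, 14 and 15 in shKitl, 14, 15 and 16 in shCtrl), whose meaning the labels do not give. It differs between the groups compared.

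Summed over the 42 genes, the level was 3573, 3107 and 4488 CPM in Kitl_OE, against 5278, 3946 and 5409 CPM in Egfp_OE. It was 4170, 3391 and 5837 CPM in shKitl, against 5394, 6423 and 6804 CPM in shCtrl. The Egfp_OE value of replicate 2 lay inside the Kitl_OE range, and the shKitl value of replicate 3 inside the shCtrl range. Where libraries share a P number, Kitl_OE replicate 1 was below Egfp_OE replicate 2 (both P18) in 22 of the 42 genes (51.8% of all genes), and Kitl_OE replicate 2 was below Egfp_OE replicate 3 (both P19) in 37 (50.4% of all genes). shKitl replicate 2 was below shCtrl replicate 1 (both P14) in 41 of the 42 genes (45.4% of all genes), and shKitl replicate 3 was below shCtrl replicate 2 (both P15) in 29 (49.9%). With these libraries alone, 2 against 2, 4 of the 42 genes passed under overexpression and 0 under knockdown. Over all genes, 1282 of 14533 and 0 of 14569 passed.

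Egfp_OE replicate 2 did not move as a unit. It was above the mean of Egfp_OE replicates 1 and 3 in 13 of the 42 genes and below it in 29, from 5.14 times in Pttg1 to 0.239 times in Prc1. Across the 42 genes this ratio fell with the length of the gene's merged exons, with a Spearman correlation of -0.493, and across 15232 genes with a known length it was -0.488. The genes share the 3 libraries, so this is a description across genes that are not independent. Pttg1 (2000 bases), Spc24 (2573 bases) and Birc5 (3402 bases) were high there, and Mki67 (10061 bases), Prc1 (8225 bases) and Cenpf (15433 bases) were low. Other genes went against this trend. Cdc20 (1868 bases) and Plk1 (2199 bases) were below the partners' mean, and Cenpa (5860 bases) and Bub3 (7006 bases) above it. Taken the same way, each library against its partners, the correlation was -0.400 in Kitl_OE replicate 2 and -0.319 in shKitl replicate 1. Across all genes with a length these were -0.142 and -0.298. SDs of the log2 ratios were 0.140 and 0.206 there, against 0.886 in Egfp_OE replicate 2. In Egfp_OE replicates 1 and 3, whose partners include replicate 2, the correlation was 0.512 and 0.368. In the remaining libraries it ran from -0.200 to 0.297. The part of transcript length in the overexpression result was not tested. The 4 calls that held throughout, Ccnb2, Ttk, Birc5 and Spc24, also held without Egfp_OE replicate 2, with log2 fold changes of -1.56 for Spc24 and -1.34 for Birc5.

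**Figure D5:**
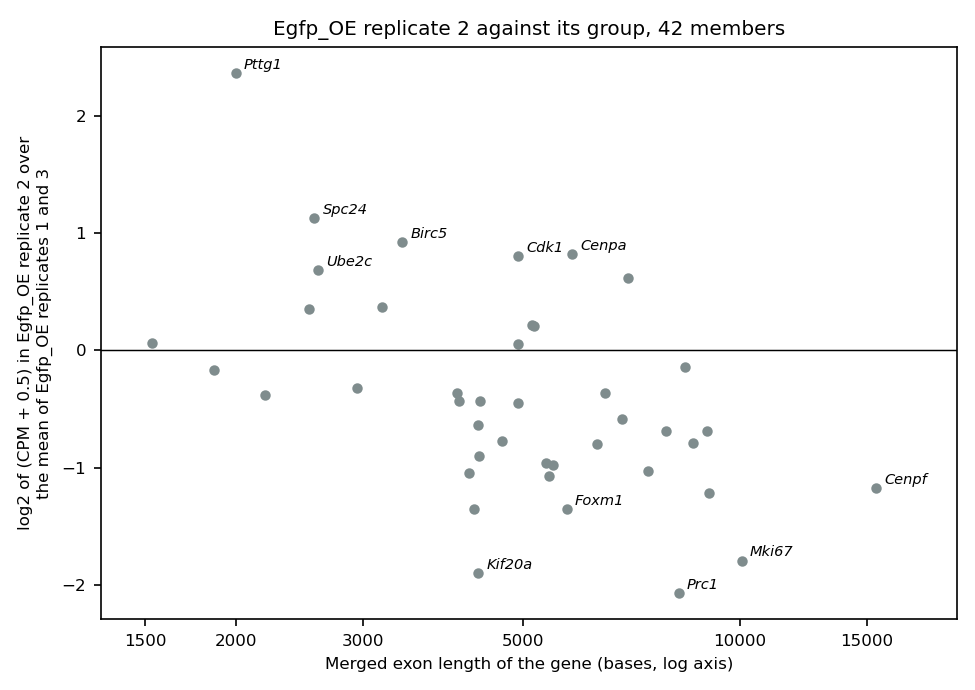
log2 of the level (CPM + 0.5) in Egfp_OE replicate 2 over the mean of Egfp_OE replicates 1 and 3, against merged exon length in bases on a log axis, 1 point for each of the 42 genes, with the 4 lowest, the 6 highest and the longest gene named. The short gene Pttg1 lies highest and the long genes Mki67 and Prc1 far below 0 (Spearman correlation -0.493). Other genes depart from this trend, such as Cdc20 (1868 bases) below 0 and Bub3 (7006 bases) above it.

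Per length, the 42 genes covered a wide range. In the authors' TPM values, averaged over the 12 libraries, Cdc20 (176 TPM), Cdk1 (173 TPM), Top2a (166 TPM), Ccna2 (142 TPM) and Plk1 (138 TPM) were the most abundant, and Kif23 (25.6 TPM), Ttk (18.4 TPM) and Cenpf (14.2 TPM) the least. The same 5 genes led in Egfp_OE, shKitl and shCtrl cells, while in Kitl_OE cells Cdk1, Cdc20, Tpx2 (146 TPM), Kif20a (132 TPM) and Aurka (103 TPM) led and Ccna2 ranked 16 of 42. Cdc20 and Cdk1 differed by less than their spread, since Cdc20 averaged 152 ± 41.5 TPM in Kitl_OE and 167 ± 44.8 TPM in Egfp_OE, and Cdk1 averaged 166 ± 24.2 TPM in Kitl_OE and 176 ± 26.4 TPM in Egfp_OE (SD, n = 3 each). Among the cyclins, Ccna2 averaged 56.4 ± 18.8 TPM in Kitl_OE and 133 ± 43.3 TPM in Egfp_OE, and Ccnb2 averaged 44.4 ± 7.64 TPM in Kitl_OE and 123 ± 21.6 TPM in Egfp_OE. Within the NDC80 complex, Spc24 averaged 11.6 ± 1.66 TPM and Spc25 42.6 ± 4.19 TPM in Kitl_OE cells, whereas in Egfp_OE cells Spc24 averaged 45.6 ± 14.2 TPM and Spc25 37.4 ± 1.81 TPM.

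Other cell cycle genes were read from the same fit. Of 81 further mitotic genes, 21 were lower and 4 higher in Kitl_OE than in Egfp_OE cells, with a median log2 fold change of -0.37. Of 46 genes of DNA replication and the G1/S transition, 17 were lower and 1 higher, with a median of -0.43. The lower genes were 25.9% and 37.0% of these lists, against 18.9% of all genes, of which 15.4% were higher. In shKitl minus shCtrl 0 genes of either list passed, with medians of -0.34 and -0.26. Over all genes tested the medians were -0.07 and 0.05.

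Among the further mitotic genes, Kif15, a spindle motor, had 11.2, 10.7 and 16.5 CPM in Kitl_OE, against 42.5, 35.7 and 47.9 CPM in Egfp_OE (log2 fold change -1.71, adjusted p = 0.000229). Cenph, of the inner kinetochore, had 13.7, 17.1 and 18.4 CPM in Kitl_OE, against 48.0, 88.2 and 47.7 CPM in Egfp_OE (-1.90, adjusted p = 0.000403). Trip13, the ATPase that takes the spindle checkpoint complex apart, was at -1.45 (adjusted p = 0.00748). In Kif15 and Cenph the Kitl_OE libraries lay far below the others. Psrc1, a spindle protein gene that is also a p53 target, moved the other way, with 97.0, 101 and 73.6 CPM in Kitl_OE, against 17.9, 18.7 and 19.7 CPM in Egfp_OE (2.27, adjusted p = 0.00374).

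Among the replication genes, Cdc6, which loads the replicative helicase, had 35.6, 35.6 and 45.0 CPM in Kitl_OE, against 98.3, 96.5 and 115 CPM in Egfp_OE (log2 fold change -1.41, adjusted p = 0.00180). The thymidine kinase gene Tk1 was at -1.29 (adjusted p = 0.000575), and Gmnn, which encodes the licensing inhibitor geminin, was at -1.19 (adjusted p = 0.00650). The groups did not overlap in Cdc6, Tk1 or Gmnn. Mcm2, a helicase subunit, had 512, 523 and 483 CPM in Kitl_OE, against 355, 282 and 379 CPM in Egfp_OE, so it was higher there (0.58, adjusted p = 0.0270). The Mcm2 call ended under 11 of 25 alternatives, among them those without Kitl_OE replicate 1, 2 or 3 or Egfp_OE replicate 2 (adjusted p = 0.0520 to 0.0846). Ccne1, cyclin E1, was at 0.48 (adjusted p = 0.0760).

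Of 22 regulators of the DREAM and MuvB complexes, which control the CHR element, 3 were higher and 2 lower in Kitl_OE cells, with a median of -0.09. The 22.7% called lay below the 34.3% of all genes called in either direction. Lin9, a MuvB subunit, had 20.7, 18.6 and 27.6 CPM in Kitl_OE, against 44.1, 48.7 and 39.9 CPM in Egfp_OE (-0.99, adjusted p = 0.00243). The pocket protein gene Rbl2, which encodes p130, had 67.9, 68.8 and 59.6 CPM in Kitl_OE, against 46.2, 19.5 and 40.5 CPM in Egfp_OE (0.89, adjusted p = 0.0215). In both genes the groups were apart, and the Rbl2 call ended without Kitl_OE replicate 1 (adjusted p = 0.0588) or replicate 2 (0.0645). Tfdp2, a dimer partner of E2F factors, also passed (0.63, adjusted p = 0.0219, but 0.0653 without Kitl_OE replicate 1). E2f3 passed too (-0.51, adjusted p = 0.0267), a call that ended when any 1 of 7 libraries was left out (0.0536 to 0.130), those of Kitl_OE, Egfp_OE replicates 1 and 3 and shCtrl replicates 2 and 3. Mybl2, which encodes B-MYB, had 34.1, 33.6 and 52.8 CPM in Kitl_OE, against 56.6, 28.3 and 66.9 CPM in Egfp_OE, an overlap without a call (-0.33, adjusted p = 0.561).

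Of 16 cell cycle inhibitors, 4 were higher and 2 lower in Kitl_OE cells, and this 37.5% is near the 34.3% of all genes called. Cdkn1a, which encodes p21, had 764, 796 and 593 CPM in Kitl_OE, against 176, 283 and 161 CPM in Egfp_OE. The groups were far apart, with a log2 fold change of 1.80 (adjusted p = 0.0176), and the call ended without Egfp_OE replicate 1 (0.0534) or replicate 3 (0.0577). Ccng1, a p53 target, had 624, 590 and 588 CPM in Kitl_OE, against 262, 165 and 212 CPM in Egfp_OE (adjusted p = 0.00258), and Cdkn2b was at 1.35 (0.0477). The Cdkn2b call ended without Kitl_OE replicate 1 or 2, Egfp_OE replicate 1 or 3, shKitl replicate 1 or shCtrl replicate 2 (adjusted p = 0.0538 to 0.135). Cdkn1c, which encodes p57, had 1.48, 1.10 and 0.819 CPM in Kitl_OE, against 27.7, 212 and 29.0 CPM in Egfp_OE (-6.30, adjusted p = 0.000800, and -4.63 without Egfp_OE replicate 2). Under knockdown Cdkn1a had 366, 358 and 91.9 CPM in shKitl, against 230, 105 and 78.9 CPM in shCtrl, and did not pass (0.98, adjusted p = 0.354). In both groups its lowest library was replicate 3, in which most of the 42 mitotic genes were highest. The part of these genes in the mitotic values was not tested.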

How the data were processed

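The authors deposited raw read counts per gene, made with STAR 2.5.2b and featureCounts of Subread 1.5.2 on GRCm38, per the submitters' processing notes, which also list DESeq2. They also deposited TPM values, which are counts per gene length brought to the same total in each library. The sources used here do not give the gene lengths, the strand setting or the annotation release. Per the labels' protocols, RNA was polyA-selected and libraries were made with an NEBNext Ultra II kit. Groups and replicate numbers came from the sample titles. The tables hold 49671 genes and 92 spike-in RNAs, which were left out of library sizes.

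Counts were fitted with edgeR 4.0.16 in R 4.3.3 (filterByExpr by group, TMM scaling, robust quasi-likelihood fit, 1 coefficient per group over all 12 libraries, biological coefficient of variation 0.292), with Benjamini-Hochberg adjustment over 15271 genes. The SE of a fold change is its size over the square root of its F. The fit was also run on simulated counts with few genes changed and no shifts shared by the genes of a library. Because the real libraries hold such shifts, that run cannot show how the test behaves under them. TPM was used for levels between genes and, as log2(TPM + 1), in a limma 3.58.1 alternative. Exon lengths and overlaps came from GENCODE M21, and promoters from RefSeq tables of GRCm38.p6. Alternatives were other scalings, DESeq2 1.42.0, limma, other filters and thresholds, a replicate block, the P number, the 2 groups alone and each library left out. Libraries sharing P numbers and counts at an unadjusted p were added after the data were seen. At 24979742 to 33517686 counts per library, the 42 genes had at least 248 reads each, and the spread between libraries exceeded counting error.

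The 42 genes and all lists were chosen with earlier results of these data known. Every library's value is given for 15 genes named by rule (Mki67, Top2a, Ccnb1, Ccna2, Cdk1, Cdc20, Plk1, Aurka, Aurkb, Birc5, Foxm1, Bub3, Incenp, Knstrn and Pttg1), for up to 8 genes called with the largest change per comparison or, with none called, the 3 highest and 3 lowest. From other lists came up to 4 called genes with the largest change, with Cdkn1a, Mybl2, Rbl2, Ccne1, Mcm2 and Kitl. 1 gene that this rule names is not reported here. Further genes named were chosen after their values were seen.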

Additional observations from a re-analysis of the deposited data

Results flagged for a closer look

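In 3 of the 42 genes the effects of Kitl overexpression and of Kitl knockdown, each against its own control line, differed by the test of the difference itself (edgeR quasi-likelihood test, adjusted over all genes). These were 7.14% of the 42 genes, below the 14% of all genes that passed the same test. For Spc24 the log2 difference of the 2 effects was -1.93 (adjusted p = 0.0124), with -2.06 under overexpression and -0.13 under knockdown. For Ccnb2 it was -1.34 (adjusted p = 0.00341), with -1.48 under overexpression and -0.14 under knockdown. For Ttk it was -1.15 (adjusted p = 0.0378), with -1.56 under overexpression and -0.41 under knockdown. The Ttk call held in only 10 of 23 alternatives, against 22 for Ccnb2 and 21 for Spc24. The Kitl_OE libraries lay below the Egfp_OE libraries in all 3 genes, and the shKitl and shCtrl libraries overlapped in all 3. The 2 effects come from different control lines and from libraries with different P numbers, whose part in the difference was not tested.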

How the results depend on the processing

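Of the 10 calls in Kitl_OE minus Egfp_OE, those of Ccnb2, Ttk, Birc5 and Spc24 held in all 25 alternatives, and those of the other 6 genes kept their direction. The number of the 42 genes called was 10, and it was 4 with spike-in scaling, 6 with limma on log2(TPM + 1), 5 at an adjusted p of 0.01, 4 with the libraries that share P numbers, and 5 to 13 with single libraries left out. For the difference of the effects it was 3, and 0 with spike-in scaling and 1 at 0.01 (2 to 3 with libraries left out). It stayed at 0 under knockdown in every alternative, and DESeq2 called 2 between the control lines. The causes were not tested.

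Of all genes, 5236 were called in Kitl_OE minus Egfp_OE, and 2351 with spike-in scaling, 2822 at an adjusted p of 0.01 and 1282 with shared P numbers. The count was 4020 by limma on log2(TPM + 1) and 3501 to 6150 with single libraries left out. Under knockdown 0 were called, and 439 by DESeq2 (308 higher, 131 lower), 7 by limma on TPM, 23 without a filter on low counts and 0 to 277 with libraries left out. The difference of the effects had 2131 calls (622 higher, 1509 lower), and 919 with spike-in scaling (162 higher, 757 lower), 1291 by limma on TPM, 818 at 0.01 and 1245 to 2842 with libraries left out. Between the control lines 191 were called (78 higher, 113 lower), and 10 with spike-in scaling (0 higher, 10 lower), 1553 by DESeq2, 307 by limma-voom, 349 without a filter, 1 at 0.01, 82 with the replicate block, 0 with the P number as a covariate, 0 with the 2 groups alone, and 0 to 771 with libraries left out, by over 1.5 times for every library but shKitl replicate 3. Spike-in scaling moved the median log2 fold change of all genes to 0.00 under overexpression, -0.06 under knockdown, 0.10 for the difference and -0.34 between the control lines, beside -0.07, 0.05, -0.09 and 0.05 in the same order, and library totals moved that of the difference to -0.19. Levels relative to spike-in RNA and to all genes can thus differ by that much.

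No called value of the 42 genes turned its sign. The sign turned in at least 1 alternative in 12 genes under overexpression, 6 under knockdown, 18 for the difference of the effects and 11 between the control lines. Their log2 fold changes lay within 0.3 of 0, except Pttg1 under overexpression (-1.24) and Pttg1 (1.21) and Spc24 (0.49) between the control lines. Among the genes named by rule in a comparison, the turns with spike-in scaling were Cdk1 (0.068) and Knstrn (0.060) under overexpression, and Bub3 (-0.21) and Spc24 (-0.11) between the control lines. With the P number as a covariate they were Aurka (-0.018) under overexpression, and Bub3 (-0.012) and Spc24 (-0.049) between the control lines, and with shared P numbers Aurka (-0.16). Cdc25c under knockdown turned to -0.022 with DESeq2 size factors, -0.045 with spike-in scaling, -0.022 with DESeq2, -0.0072 with limma-voom, -0.038 with limma on TPM, -0.017 with the 2 groups alone and -0.00065 with the replicate block. With single libraries left out the ranges that cross 0 were, under overexpression, Aurka -0.056 to 0.24, Cdk1 -0.29 to 0.19, Foxm1 -0.49 to 0.13, Knstrn -0.078 to 0.052 and Pttg1 -1.62 to 0.042. Under knockdown they were Bub1b -0.20 to 0.0071, Cdc25c -0.16 to 0.19 and Knstrn -0.23 to 0.0076, and between the control lines Pttg1 -0.053 to 1.60. Of the other genes, the ranges over all alternatives were, under overexpression, Bub1b -0.40 to 0.15, Mad2l1 -0.068 to 0.18, Cenpe -0.38 to 0.012, Cenpf -0.41 to 0.22, Ndc80 -0.23 to 0.033, Hmmr -0.16 to 0.35 and Prc1 -0.45 to 0.28. Under knockdown they were Spc24 -0.33 to 0.055, Spc25 -0.33 to 0.025 and Ube2c -0.39 to 0.023.

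Replicate numbers were not taken as pairs: deviations of same-numbered libraries correlated at 0.026, 0.204 and 0.169 between Kitl_OE and Egfp_OE and at 0.151, -0.259 and 0.527 between shKitl and shCtrl. Those of libraries that share a P number correlated at -0.0017 (P18) and -0.176 (P19) between Kitl_OE and Egfp_OE. Between shKitl and shCtrl these values were 0.556 (P14) and 0.319 (P15). With the replicate block 13 of the 42 genes were called under overexpression, 4 for the difference of the effects and 0 in the other 2 comparisons. Of all 15271 genes, 5186 were called under overexpression, 2118 for the difference, 0 under knockdown and 82 between the control lines.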
